A study of Mus musculus with 6 samples.

Results

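Meis, Pbx and Pknox genes encode homeodomain transcription factors of the TALE class, so called for an extra loop of amino acids in the homeodomain. The 8 genes described here (Meis1, Meis2, Meis3, Pbx2, Pbx3, Pbx4, Pknox1 and Pknox2) were found by their symbols among the 29659 genes of the deposited table. Meis and Pknox proteins bind Pbx proteins, help to hold them in the nucleus and contact DNA together with them. The resulting complexes act as cofactors of other homeodomain proteins, such as the Hox proteins of the hindbrain and trunk. In the embryonic forebrain Meis2 is a known marker of the lateral ganglionic eminence (LGE), the ventral region that gives rise to striatal projection neurons and olfactory bulb interneurons, and Meis genes are known to respond to retinoic acid.

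RNA was sequenced from LGE of C57BL/6 mouse embryos at embryonic day 16.5 in 3 Zfhx3-CKO libraries (genotype Dlx5/6-Cre; Zfhx3F/F) and 3 control libraries (genotype Dlx5/6-Cre). All embryos thus carried the Cre transgene, which is driven by Dlx5/6 elements active in ventral forebrain cells, and only the Zfhx3-CKO embryos had floxed Zfhx3, a gene for a large zinc-finger and homeodomain factor. The labels do not say which exons are floxed, nor whether replicates came from separate embryos, so p-values measure only the spread between libraries. Library totals were 18960574 to 20311799 counts in the Zfhx3-CKO group and 15938590 to 16753355 in the control group. Zfhx3 itself stood at 98.8, 87.4 and 99.4 CPM (counts scaled to library size) in Zfhx3-CKO LGE, against 134, 135 and 101 CPM in the control libraries (log2 fold change -0.37, edgeR adjusted p 0.091). Zfhx3-CKO libraries 1 and 3 stood apart from library 2 in markers of cortical excitatory neurons: the 12 genes of that list summed to 208, 53.9 and 295 CPM in Zfhx3-CKO libraries 1, 2 and 3, against 55.04 to 58.4 CPM in the control libraries. The Zfhx3-CKO libraries held 55947 to 59631 counts of Xist and the control libraries 5 to 9, while 4 Y-linked genes summed to 5 to 8 counts in the Zfhx3-CKO libraries and to 4939 to 5451 in the control libraries. Sex and genotype therefore cannot be told apart in any value below.

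The homeobox is the stretch of coding sequence that encodes the DNA-binding homeodomain, and all 8 genes have one. It is shown for 1 close pair of Meis genes, for the Pbx gene that passed the test beside a Pbx gene that did not, and for Pknox2. Each line is the coding strand of the GENCODE vM21 transcripts (GRCm38) over 63 codons, and capitals mark the 9 bases that encode the proline, tyrosine and proline of the TALE loop.
Meis1: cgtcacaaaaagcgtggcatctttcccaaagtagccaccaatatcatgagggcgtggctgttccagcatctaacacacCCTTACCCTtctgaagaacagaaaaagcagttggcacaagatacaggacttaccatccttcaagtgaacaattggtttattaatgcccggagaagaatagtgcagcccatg
Meis2: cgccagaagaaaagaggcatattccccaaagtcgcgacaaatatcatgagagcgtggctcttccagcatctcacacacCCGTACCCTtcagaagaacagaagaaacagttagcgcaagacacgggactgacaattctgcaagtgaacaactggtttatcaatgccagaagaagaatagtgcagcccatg
Pbx3: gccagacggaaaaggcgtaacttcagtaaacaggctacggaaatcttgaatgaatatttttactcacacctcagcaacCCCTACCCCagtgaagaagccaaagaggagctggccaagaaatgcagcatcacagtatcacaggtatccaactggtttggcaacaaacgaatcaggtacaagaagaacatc
Pbx4: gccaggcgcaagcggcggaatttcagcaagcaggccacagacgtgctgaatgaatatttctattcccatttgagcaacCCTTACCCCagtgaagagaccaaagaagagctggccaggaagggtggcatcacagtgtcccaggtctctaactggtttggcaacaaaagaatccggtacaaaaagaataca
Pknox2: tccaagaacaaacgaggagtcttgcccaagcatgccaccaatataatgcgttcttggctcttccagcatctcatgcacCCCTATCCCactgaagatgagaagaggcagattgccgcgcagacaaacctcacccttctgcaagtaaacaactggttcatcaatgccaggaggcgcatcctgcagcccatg

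The 189 bases of the homeobox were 78.3% to 84.7% identical in the 7 pairs of genes from the same subfamily and 44.4% to 71.4% identical in the 21 pairs from different subfamilies. Among pairs from different subfamilies, the highest identity was between Meis2 and Pknox2, and Meis1 and Pbx4 had the lowest. The longest run of identical bases in any pair was 21, between Meis1 and Meis2 and between Meis1 and Meis3. Over whole transcripts, none of the 8 genes shared a run of 50 bases with another member. A read of at least 50 bases could thus not come from transcripts of more than 1 member, although the read length is not given here. Some members share transcribed sequence with genes other than these 8. For Meis1, 17.0% of the distinct 50-base runs also occur in transcripts of other genes, and for Pbx2 the share was 4.93%. For Pbx4, Pbx3, Meis3 and Pknox2 it was 0. Genes that overlap a member at its own locus, as at Meis1 and Pbx2, were counted among the other genes. Their part in these shares was not separated.

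In Zfhx3-CKO LGE 1 of the 8 genes (12.5%) rose, none fell, and 7 did not pass the test. DESeq2 also called 1 higher and none lower. Pbx4 was the gene that rose, 1.52-fold. Over the 16551 genes tested, 7.36% passed in either direction, 3.87% as higher, and 3.49% as lower, so 1 gene of 8 is close to this background. The test applied was edgeR's quasi-likelihood test on the deposited counts, with p adjusted (Benjamini-Hochberg) over all tested genes and a threshold of 0.05. At an unadjusted p below 0.05 stood 3 members, Pbx4 and Pknox2 as higher and Meis1 as lower, 37.5% of the members where 25.6% of all tested genes did. The same 3 genes were those whose groups did not overlap, against 31.4% of all tested genes. The median log2 fold change was -0.01 over the members and 0.00 over all tested genes. The median size of the change, whatever its sign, was 0.08 over the members and 0.19 over all tested genes. All tested genes were taken whatever their level, so these medians do not compare genes of like level.

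**Figure D1:**
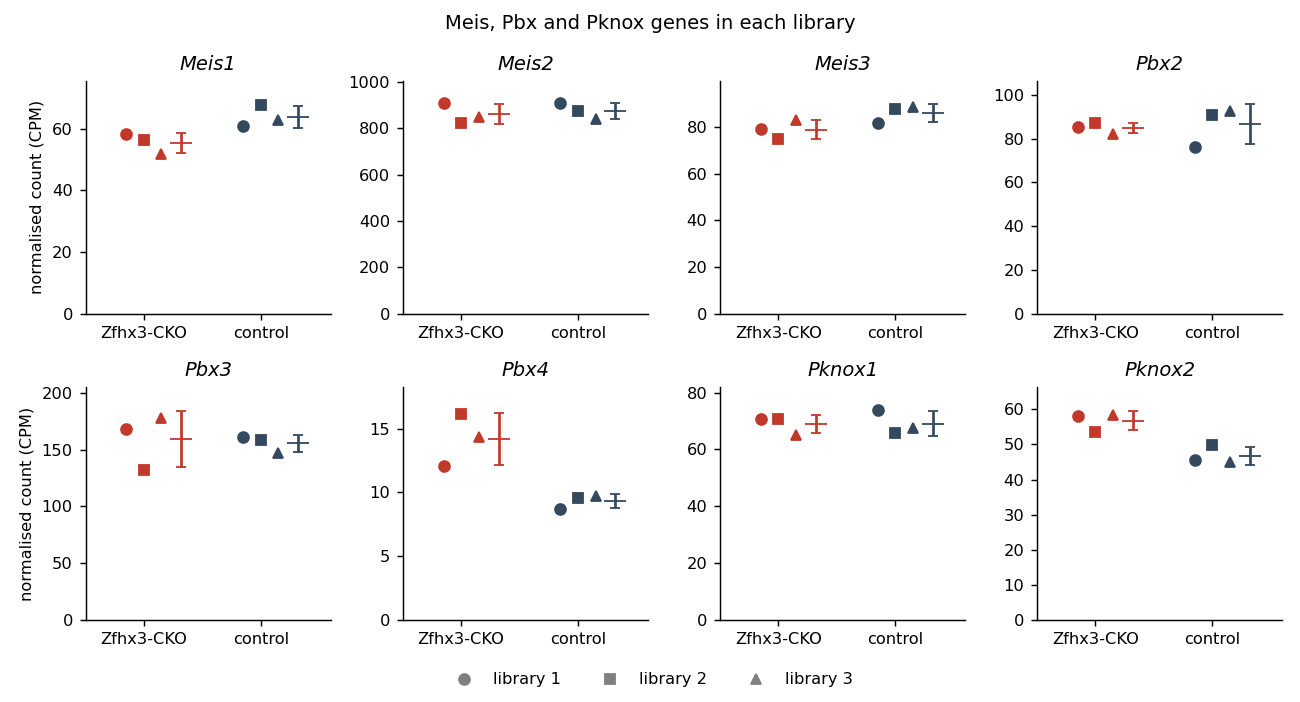
Normalised counts (CPM, y axis from 0) of the 8 genes in the 3 Zfhx3-CKO and 3 control libraries. Each symbol is 1 library, and the bar beside each group is its mean ± SD. The Zfhx3-CKO libraries lie above the control libraries for Pbx4 and Pknox2 and below them for Meis1, and the groups overlap for the other 5 genes.

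Among the Meis genes, Meis2 (chromosome 2, 115863064 to 116065839, minus strand, GRCm38) had the highest level per length, and it did not pass the test. It was measured at 908, 825 and 850 CPM in Zfhx3-CKO LGE, against 909, 875 and 843 CPM in the control libraries. The libraries of the groups are interleaved, with the highest value of each group within 1 CPM of the other. The log2 fold change was -0.02 (SE 0.07, edgeR adjusted p 0.852), with a 95% interval of -0.17 to 0.12. As a fold change the interval runs from 0.887 to 1.09. Without Zfhx3-CKO library 2 or control library 1 the log2 fold change was 0.01. In bulk tissue, a change in the number of cells of a type and a change in RNA per cell cannot be told apart, so this level describes the whole dissected piece.

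Meis1, a paralog best known from blood stem cells and leukaemia, had 58.2, 56.4 and 51.8 CPM in the Zfhx3-CKO libraries, against 60.9, 67.8 and 62.7 CPM in the control libraries. The ranges did not overlap, with Zfhx3-CKO lower, but the difference did not pass the test (log2 fold change -0.20, SE 0.08, edgeR adjusted p 0.149). A two-sided exact permutation test returned p = 0.1, and no split of 6 libraries into 3 and 3 can return less. The Meis1 locus (chromosome 11, 18879817 to 19018985, minus strand, GRCm38) overlaps 5 other annotated genes, 3 of them on the same strand, and the library kit does not mark strand. Those 5 genes together held counts equal to 3.64% to 7.76% of those of Meis1. The sources used here do not say how reads in the overlaps were assigned, so the count of Meis1 is uncertain there.

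Meis3, the other paralog (chromosome 7, 16175090 to 16186504, plus strand), was measured at 79.0, 74.6 and 82.9 CPM in Zfhx3-CKO LGE, against 81.6, 87.7 and 88.7 CPM in the control libraries. Only Zfhx3-CKO library 3 reached into the control range. The log2 fold change was -0.12 (SE 0.07, edgeR adjusted p 0.306). The balance of Meis1 to Meis2 within a library, which does not depend on library scaling, had a mean log2 FPKM ratio of -3.76 ± 0.08 in the Zfhx3-CKO libraries and of -3.59 ± 0.11 in the control libraries (SD, n = 3 each). The groups overlapped on it, and the mean difference of -0.18 had p = 0.2 (exact permutation, two-sided).

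Among the Pbx genes, which encode the partners of Meis and Pknox proteins, Pbx4 (ENSMUSG00000031860, chromosome 8, 69832491 to 69872292, plus strand, GRCm38) rose in Zfhx3-CKO LGE. It was measured at 247, 305 and 280 counts in the Zfhx3-CKO libraries, against 146, 152 and 163 counts in the control libraries. Scaled to library size these were 12.1, 16.2 and 14.4 CPM in the Zfhx3-CKO libraries, against 8.72, 9.59 and 9.76 CPM in the control libraries. The groups did not overlap, and the Zfhx3-CKO libraries spread more widely (SD 2.03) than the control libraries (SD 0.554). The fold change was 1.52 with a 95% interval of 1.21 to 1.9, a log2 fold change of 0.60 (SE 0.14, edgeR adjusted p 0.0425). The authors' deposited table gives Pbx4 a log2 fold change of 0.52 with adjusted p 0.0101 and does not mark it as significant. Every gene marked in the authors' deposited table has a log2 fold change of at least 1 in size. The call was close to the threshold: it was lost without control library 1, 2 or 3 (adjusted p 0.166, 0.141 and 0.0876) and without Zfhx3-CKO library 1 or 2 (0.0563 and 0.0697), while the log2 fold change stayed between 0.50 and 0.71.

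Pbx3 (chromosome 2, 34171457 to 34373142, minus strand, GRCm38), a gene known from developing neurons and from leukaemia, spread over the Zfhx3-CKO libraries more widely (SD 24.5 CPM) than over the control libraries (SD 7.52 CPM). It was measured at 168, 132 and 178 CPM in Zfhx3-CKO LGE, against 161, 159 and 147 CPM in the control libraries. Zfhx3-CKO library 2 lay below every control library, whereas Zfhx3-CKO libraries 1 and 3 lay above every one. The log2 fold change was 0.04 (SE 0.11, edgeR adjusted p 0.875), with a 95% interval of -0.22 to 0.29. Its sign turned without Zfhx3-CKO libraries 1 and 3 together (log2 fold change -0.24, with 1 Zfhx3-CKO library left) and without Zfhx3-CKO library 3 (-0.05). The value was -0.00 without Zfhx3-CKO library 1 or control library 3. Without Zfhx3-CKO library 2 it was 0.16 (adjusted p 0.231). That library also had the lowest sum of cortical markers, and the part of cortical cells in the Pbx3 values was not tested.

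Pbx2 is a broadly expressed gene whose locus (chromosome 17, 34591266 to 34597400, plus strand, GRCm38) overlaps that of Gpsm3, a gene with counts equal to 1.62% to 2.47% of those of Pbx2. It was read at 85.4, 87.0 and 82.3 CPM in Zfhx3-CKO LGE, against 76.1, 91.0 and 92.6 CPM in the control libraries. Here the control libraries spread more widely, and all Zfhx3-CKO values lay inside the control range (log2 fold change -0.03, SE 0.09, edgeR adjusted p 0.876). Without control library 2 or 3 the log2 fold change was 0.02. The log2 FPKM ratio of Pbx3 to Pbx2 was 0.23, -0.15 and 0.37 in the Zfhx3-CKO libraries, against 0.33, 0.06 and -0.08 in the control libraries. The groups overlapped, and the mean difference of 0.05 had p = 0.9 (exact permutation, two-sided); it was -0.06 without Zfhx3-CKO library 3 and -0.05 without control library 3.

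The Pknox genes, also known as Prep genes, encode further Pbx partners. Pknox2 (chromosome 9, 36890982 to 37147407, minus strand, GRCm38) was measured at 58.2, 53.6 and 58.5 CPM in Zfhx3-CKO LGE, against 45.5, 49.7 and 45.0 CPM in the control libraries. The groups did not overlap, and the log2 fold change of 0.28 (SE 0.08, 95% interval 0.10 to 0.46) missed the threshold with an edgeR adjusted p of 0.0641. The authors' deposited table gives Pknox2 a log2 fold change of 0.27 with adjusted p 0.0543. Over 16 other settings of the analysis its log2 fold change ran from 0.20 to 0.33 and its adjusted p from 0.051 to 0.271, so that it passed in none of them.

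Pknox1 (chromosome 17, 31564749 to 31607684, plus strand) had 70.8, 70.5 and 65.1 CPM in the Zfhx3-CKO libraries, against 74.0, 65.7 and 67.6 CPM in the control libraries. The groups overlapped (log2 fold change -0.01, SE 0.08, edgeR adjusted p 0.977). Without Zfhx3-CKO library 3 the log2 fold change was 0.03 and without control library 1 it was 0.05. Annotated genes overlap both Pknox loci, 3 at Pknox1 and 4 at Pknox2. None of these was found by its symbol among the deposited genes, so their counts could not be read. The 95% intervals of Pknox1, Pbx2, Pbx3, Meis2 and Meis3 all included 0, and none of these 5 intervals went below 0.82-fold or above 1.22-fold. A miss of the threshold does not show that the levels were the same.

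**Figure D2:**
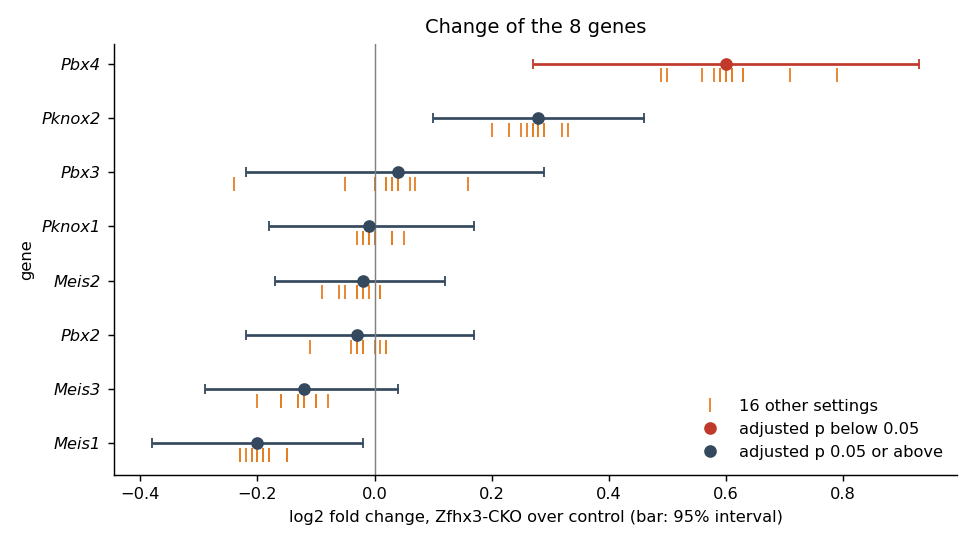
Log2 fold change of each of the 8 genes, Zfhx3-CKO over control (x axis), with its 95% interval as a bar and the values under 16 other settings as ticks. Pbx4 at 0.60 is the gene with an adjusted p below 0.05; the ticks of Pbx4, Pknox2, Meis3 and Meis1 keep 1 side of 0, and those of the other 4 genes fall on both.

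Levels of different genes were compared per length, in the deposited FPKM (fragments scaled by gene length and library size). Meis2 stood first in both groups, at 71.3 ± 3.97 FPKM in the Zfhx3-CKO libraries and 72.7 ± 2.49 FPKM in the control libraries (SD, n = 3 each). That put it among the highest 1.83% of the table in the Zfhx3-CKO group and among the highest 1.70% in the control group. Pbx3, Meis3 and Pbx2 followed with means of 23.3 to 26.0 FPKM in the Zfhx3-CKO libraries and 23.8 to 27.1 FPKM in the control libraries. Neighbours among these 3 overlapped in both groups, so the order of neighbours is not resolved. In the control libraries the lowest Meis3 value (25.7 FPKM) lay just above the highest Pbx2 value (25.6 FPKM). Pknox1 came next in both groups, at 9.96 ± 0.523 FPKM in the Zfhx3-CKO libraries and 10.02 ± 0.636 FPKM in the control libraries, apart from its neighbours on either side.

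The lowest 3 places were held by Pbx4, Pknox2 and Meis1, in another order in each group. In the Zfhx3-CKO libraries the order was Pbx4 (6.39 ± 0.886 FPKM), Pknox2 (5.48 ± 0.272 FPKM) and Meis1 (5.25 ± 0.343 FPKM), and each neighbour overlapped the next. In the control libraries it was Meis1 (6.06 ± 0.319 FPKM), Pknox2 (4.52 ± 0.225 FPKM) and Pbx4 (4.22 ± 0.26 FPKM), with Meis1 above all values of the other 2 genes. This order between genes rests on the lengths behind the FPKM values, which were the same in all libraries and ran from 2217 bases for Pbx4 to 12043 bases for Meis2. Those lengths exceed the longest protein-coding transcript of each gene in GENCODE vM21 (1560 bases for Pbx4, 3718 bases for Meis2). With those transcripts as length, a choice made after seeing the data, the control means would be 235.5 FPKM for Meis2, 12.9 FPKM for Pknox2, 8.45 FPKM for Meis1 and 6.00 FPKM for Pbx4, so that Pknox2 stands above Meis1. Pbx3 (56.9 FPKM) would likewise stand above Meis3 (46.8 FPKM).

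**Figure D3:**
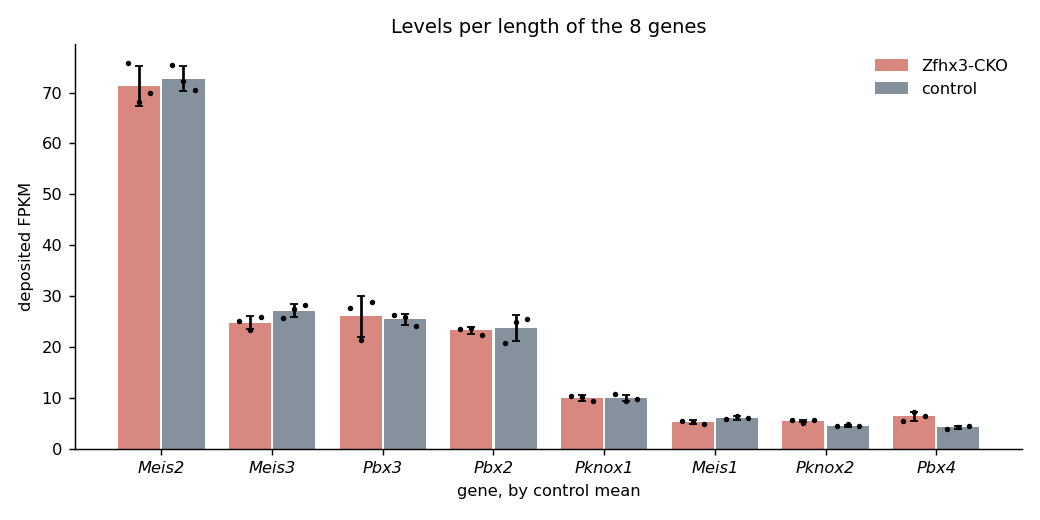
Deposited FPKM (y axis from 0) of the 8 genes, ordered by the control mean. Bars are group means with SD, and points are single libraries. Meis2 at 71.3 FPKM in Zfhx3-CKO and 72.7 FPKM in control libraries stands apart, and Pbx4 has the lowest control mean.

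Within each subfamily the makeup can be read from the same FPKM values. Meis2 made up 71.2%, 70.3% and 69.4% of the summed Meis FPKM in the Zfhx3-CKO libraries, against 70.6%, 68.1% and 67.4% in the control libraries, and these ranges overlap. Pbx4 made up 9.7%, 13.8% and 11.1% of the summed FPKM of the 3 Pbx genes in the Zfhx3-CKO libraries, against 7.7%, 7.8% and 8.2% in the control libraries, without overlap. The share of Pknox2 in the Pknox sum was 35.4%, 33.6% and 37.5% in the Zfhx3-CKO libraries, against 29.1%, 33.5% and 30.8% in the control libraries. Summed over all 8 genes, the level was 179, 165 and 173 FPKM in the Zfhx3-CKO libraries, against 173, 175 and 173 FPKM in the control libraries. The sum was thus both highest and lowest in Zfhx3-CKO libraries, with the control libraries between them.

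Of 9 partners and regulators of TALE proteins (such as the Pbx-binding protein gene Pbxip1), none passed edgeR's test; at an unadjusted p below 0.05 the log2 fold change was 0.65 for Hdac1, a histone deacetylase gene (adjusted p 0.0517), and -0.19 for Crebbp, a histone acetyltransferase gene (adjusted p 0.149). Of 8 other TALE genes read, 3 were tested and none passed; Tgif2, a TALE repressor gene, had the smallest p of these (log2 fold change 0.46, adjusted p 0.129), followed by Irx1 (log2 fold change 1.15, adjusted p 0.21). Of 13 tested retinoid genes, a pathway known to induce Meis genes, 3 fell and 10 did not pass. The receptor genes Rarb and Rxrg had log2 fold changes of -1.11 and -0.89 (edgeR adjusted p 0.000622 and 0.0107). The retinol transporter gene Stra6 had a log2 fold change of -1.07 (edgeR adjusted p 0.0044). The median log2 fold change of the 13 genes was -0.07. Of the 10 that did not pass, some stood at an unadjusted p below 0.05 (edgeR adjusted p 0.0584 to 0.166). By log2 fold change, Cyp26b1 (1.43), Crabp2 (0.91), Rxrb (0.23) and Rxra (0.21) were higher among these, and Aldh1a3 (-0.72) and Dhrs3 (-0.60) lower.

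Of 18 other transcription factor genes of the LGE 3 rose, 7 fell and 8 did not pass. Whether that share differs from the 1 of 8 among the TALE genes was not tested. Their median log2 fold change was -0.14. The smallest p-values were those of Ikzf1, Ebf1 and Foxp1, factors of striatal neurons, which fell (log2 fold change -2.80, -2.89 and -1.17), and of Sp9, a zinc-finger factor of D2-type neurons, which rose (log2 fold change 1.01, edgeR adjusted p 0.00244). Isl1, Zfp503, Foxp2 and Bcl11b also fell, and Six3 and Tshz1 rose. The list was drawn up with earlier results of these data known, so its count does not stand as independent evidence. The Dlx genes, chosen for naming after their values were seen and known as upstream homeodomain factors of the same region, did not pass, with log2 fold changes of 0.07, 0.24, -0.08 and -0.20 for Dlx1, Dlx2, Dlx5 and Dlx6 (adjusted p 0.213 to 0.736).

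Markers of the cells in the dissected piece differed between libraries as well as groups. None of the 12 cortical excitatory neuron markers was at 0 in all libraries. Zfhx3-CKO library 2, with the lowest cortical sum, had the lowest Pbx3 and the highest Pbx4 of the 6 libraries. Its cortical median, at 0.06 on the log2 scale, lay above the control medians of -0.00 to 0.02, and the part of cortical cells in the Pbx4 values was not tested. The median of 10 LGE progenitor markers stood at 0.42, 0.47 and 0.04 above the control mean (log2) in Zfhx3-CKO libraries 1, 2 and 3, and that of 8 proliferation markers at 0.28, 0.45 and -0.02. In the control libraries these medians lay between -0.09 and 0.16 and between -0.07 and 0.10. The proliferation markers summed to 2624, 2916 and 2187 CPM in the Zfhx3-CKO libraries, against 1929 to 2042 CPM in the control libraries, so that by the sum Zfhx3-CKO library 3 also lay above the control range. The part of progenitors and dividing cells in the Pbx4 values was not tested. The 8 markers of the medial ganglionic eminence, the neighbouring region, summed to 380, 492 and 558 CPM in the Zfhx3-CKO libraries, against 309.7 to 336 CPM in the control libraries, and their part in the Pbx4 and Pknox2 values was not tested. The 9 D1-type markers stood at -0.57, -0.89 and -0.12 in the Zfhx3-CKO libraries and between -0.19 and 0.15 in the control libraries, and the 7 D2-type markers at 0.67, 0.65 and 0.89 in the Zfhx3-CKO libraries and between -0.08 and 0.09 in the control libraries. The median of the 8 TALE genes stood at 0.05, -0.04 and -0.05 on this scale, against -0.05, 0.03 and -0.03 in the control libraries.

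**Figure D4:**
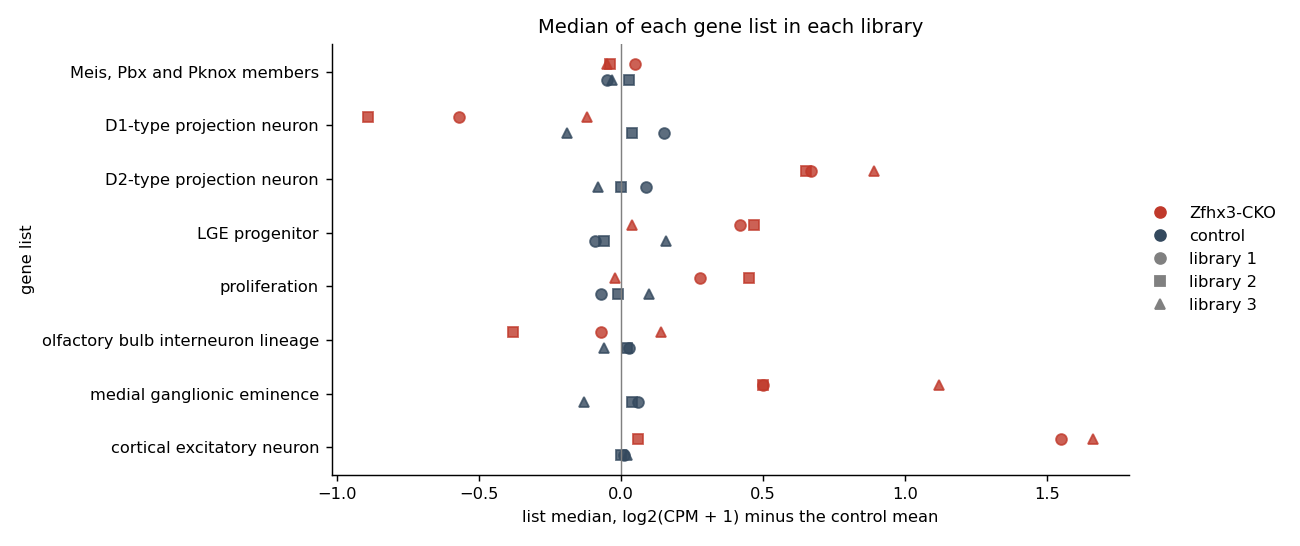
Median of each gene list in each library, as log2(CPM + 1) minus the control mean (x axis); colours are groups and symbols are library numbers. The median of the Meis, Pbx and Pknox genes stays within 0.05 of 0 in all libraries, which does not hold for each single gene. The median of the cortical excitatory list reaches 1.55 and 1.66 in Zfhx3-CKO libraries 1 and 3 and 0.06 in library 2.

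Counted by the same test, the D2-type list had 6 higher genes, and the D1-type list had 3 lower (Ebf1, Sox8 and Isl1). Higher genes were Lhx8, Nkx6-2, Nkx2-1 and Zic1 of the 8 medial ganglionic eminence markers. Tshz1 and Vax1 of the 9 olfactory bulb lineage markers were also higher, although the median log2 fold change of that list was -0.18. Hes1 and Notch1 of the progenitor markers, Mki67 and Top2a of the proliferation markers, and Bhlhe22 of 11 cortical markers tested were higher too. P2ry12 was lower among 7 microglia markers. Cx3cr1 of that list had a log2 fold change of 0.61 at an unadjusted p below 0.05 (edgeR adjusted p 0.0877). The median log2 fold change of the microglia list was -0.15. Of 7 oligodendrocyte lineage and astrocyte markers Olig2 was higher and Gfap lower. None of 8 endothelial and pericyte markers passed. Among these 8 genes, 3 had a positive log2 fold change at an unadjusted p below 0.05 (Pecam1, Tek and Flt1, adjusted p 0.0755, 0.133 and 0.166).

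Genes whose level followed a member most closely were sought over the 6 libraries, among 9874 genes of at least 10 CPM, by Pearson's r of log2 CPM. The 6 points share group and library, so r is given as a description. Closest to Pbx4 were Ssu72, Tns1 and Ubqln2 (r 0.991 to 0.995), and 372 genes had an r above 0.9 with it. Closest to Pknox2 were Map3k4, Sipa1l2 and Fhod3 (r 0.99 to 0.994), and to Pknox1 Zfp37, Imp4 and Ctnnbip1 (r 0.948 to 0.983). Closest to Meis2 were Chuk, Samd5 and Cstf2t (r 0.936 to 0.963), to Meis1 Bud13, Tm9sf4 and Nol6 (r 0.982 to 0.987) and to Meis3 Kctd17, Brinp2 and Cxx1a (r 0.983, 0.981 and 0.975). Closest to Pbx3 were Nuak1, Gnao1 and Vopp1 (r 0.989 to 0.996) and to Pbx2 Aaas, Sssca1 and Lcp1 (r 0.96 to 0.988). No member stood among the 3 closest genes of another. Between members the highest r was 0.77, for Pbx4 and Pknox2, and the lowest was -0.78, for Pbx4 and Meis1.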

How the data were processed

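Counts and FPKM of 6 mouse LGE libraries were read from the deposited full table. The deposited counts are whole, unnormalised numbers per gene, per the file headers. The authors also deposited FPKM values, which divide those counts by 1 fixed length per gene and by library size. Log2 fold changes and p-values of the authors' own comparison are in the deposited table, whose headers name no test. Per the submitters' processing notes, HISAT2, StringTie, edgeR and bcl2fastq (2.17.1.14) were used, with the build names mm10 and GRCm38.p4. The full table heads its columns with short stems, which were tied to samples by group word and number; values equalled those under the sample titles in the shorter deposited table for all 3726 shared genes.

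The main test was quasi-likelihood edgeR 4.0.16 in R 4.3.3 with TMM factors (0.992 to 1.008) and group as the only term. filterByExpr (minimum count 10) kept 16551 genes. CPM refers to the totals of tested genes times the TMM factor. The procedure was checked on simulated data. Alternatives were RLE factors, library totals, 2 other filters, DESeq2 1.42.0, limma 3.58.1 on log2(FPKM + 1) and log2(FPKM + 0.1), a replicate block and left-out libraries; robust dispersion and transcript length were added after seeing the data. Named genes were the members, Zfhx3, up to 4 passing genes of a list (otherwise the 2 with the smallest p) and the 3 genes most like each member; further names in small counts were chosen after their values were seen. Members and lists were chosen with earlier results of these data known. Homeoboxes were found by translating GENCODE vM21 transcripts; protein sequences were not used here.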

Additional observations from a re-analysis of the deposited data

How the results depend on the processing

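Meis1, Meis3, Pbx4 and Pknox2 kept their direction under all 16 alternatives (log2 fold change -0.23 to -0.15, -0.20 to -0.08, 0.49 to 0.79 and 0.20 to 0.33). Pbx4 passed in 10 of them, a count that includes the fit without Zfhx3-CKO libraries 1 and 3 together. That fit holds 1 Zfhx3-CKO library and takes its spread from the control libraries alone. Under single left-out libraries the number of members called higher ran from 0 to 1, and it was 0 with the replicate block (Pbx4 log2 fold change 0.59, edgeR adjusted p 0.111). Signs turned for members near 0. Meis2 ran from -0.06 to 0.01 and Pbx2 from -0.11 to 0.02 without single libraries, Pbx3 from -0.05 to 0.16 and Pknox1 from -0.03 to 0.05; without Zfhx3-CKO libraries 1 and 3 together, Pbx2 was 0.01, Pbx3 -0.24 and Pknox1 0.03, and Pknox1 was 0.00 with DESeq2 and with no low-count filter. The Pbx3 to Pbx2 ratio differed by -0.06 to 0.20 without single libraries and by -0.25 without Zfhx3-CKO libraries 1 and 3; the cause was not tested. The Meis1 to Meis2 ratio differed by -0.24 to -0.13 without single libraries.

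Over all genes 640 were higher and 578 lower; the counts were 1075 higher with no low-count filter, 1011 higher with DESeq2, 176 and 136 with the replicate block, and 156 to 1082 and 131 to 1014 without single libraries. Among the genes of the 5 other lists, 3 were higher in the reported fit, 6 with no low-count filter or with DESeq2, and 3 to 7 without single libraries. In the reported fit 10 were lower, and 7 to 11 without single libraries. Replicate numbers were no pairing (r of same-numbered deviations -0.065, -0.095 and -0.317), and no Zfhx3-CKO library correlated best with the control library of its own number. With transcript lengths the control means were 8.45 FPKM for Meis1, 235.5 for Meis2, 46.8 for Meis3, 28.2 for Pbx2, 56.9 for Pbx3, 6.00 for Pbx4, 16.2 for Pknox1 and 12.9 for Pknox2. With 3 libraries a group, changes inside the intervals given are not resolved.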

Other observations

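Hox genes, for whose products TALE proteins act as cofactors outside the forebrain, had few counts in these libraries. Of 39 Hox genes listed 11 were in the table and none passed the low-count filter. Zfhx3-CKO library 2 held 40 Hox counts over 9 genes, where Zfhx3-CKO libraries 1 and 3 held 0 and 3 counts and the control libraries 1, 1 and 2. That library also had the highest Pbx4 and the lowest Pbx3 of the 6 libraries. Whether tissue with Hox expression had a part in those values was not tested; without that library the log2 fold change of Pbx4 was 0.50 (edgeR adjusted p 0.0697).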
